A study of Mus musculus with 48 samples.

Results

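A set of 9 imprinted growth genes, chosen by name, was followed in newborn mouse muscle. Its members were Igf2, Grb10, Cdkn1c, Dlk1, Meg3, Rian, Mest, Peg3 and Plagl1, and all 9 were found and tested in each of the 4 deposited gene tables, which hold 17490 genes between them. The libraries labelled Myh3 knockout (KO) and wild type (WT) came from C57BL/6 mice at postnatal day 0, with 6 libraries per genotype in the diaphragm (Dia) and in 3 hind limb muscles, gastrocnemius (Gastroc), quadriceps (Quad) and tibialis anterior (TA), 48 in all. Myh3 encodes embryonic myosin heavy chain, and the study asked which mRNAs change in neonatal muscles that develop without it. The labels do not say which piece of Myh3 was deleted, whether the mice were littermates, or which muscles came from the same animal. A library is named here by genotype, muscle and the number of its deposited count column, 0 to 5, because that number could not be tied to the replicate numbers of the labels. The p-values therefore measure the spread between these libraries.

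Genomic imprinting silences the copy of a gene from the mother or from the father, so that a cell reads these genes from the paternal or the maternal chromosome alone. Many imprinted genes act on growth before and around birth. As a rule, paternally read genes such as Igf2, Dlk1, Mest, Peg3 and Plagl1 have been linked to growth or to mesenchymal and muscle development, while the maternally read Cdkn1c, which blocks the cell cycle, and Grb10, which dampens insulin and IGF receptor signals, restrain growth in many tissues. Several are known as a network of genes that are high in fetal tissues and fall after birth. Total counts of both parental copies were measured here, so the parental origin of the reads was not measured.

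Library totals ran from 11877757 to 24337406 counts with a median of 16105980, and the smallest count of a member in any library was 5366, for Cdkn1c in a KO Dia library. Myh3 counts do not check the genotype: the lowest, median and highest Myh3 levels were 3823, 4568 and 5417 CPM (counts per 1000000 counts of the library, scaled by TMM factors) in KO Quad and 3884, 4711 and 5548 CPM in WT Quad, and the ranges overlapped in every muscle, with 3138 to 4006 CPM in KO TA and 3691 to 5494 CPM in WT TA the lowest KO level relative to WT. Of the 8 fibre markers looked up (among them Ckm, Ttn and Des), none was at 0 in any library. KO columns 0 and 1 stood apart in every muscle by liver mRNA. Alb, the serum albumin gene, was at 28.1 and 49.5 CPM in them in Quad. It was at 41.8 and 52.1 CPM in them in TA, at 22.7 and 18.3 CPM in Gastroc, and in Dia at 3788 and 6207 CPM, while the other KO libraries reached at most 6.41, 7.33, 5.03 and 1938 CPM in these muscles. The highest WT library had 11.3 CPM of Alb in Quad, 12.9 in TA, 11.2 in Gastroc and 3236 in Dia. Xist, which is read from the inactive X chromosome of females, was under 10 CPM in KO columns 2 and 3 of every muscle and in 1 WT library of each muscle, which was column 0 in Quad and column 1 in TA, Gastroc and Dia. KO columns of 1 number deviated together across muscles, with r from 0.376 to 0.752 over 15090 genes in 36 of 36 pairs, so the 4 muscles of a KO column are not independent observations. WT libraries deviated together too, in part under different numbers, such as WT Quad column 4 with a TA column of another number (r = 0.726). The results below that rest on KO columns 0 and 1 are given with and without them.

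All 9 genes were abundant, and per kilobase of exon Igf2 stood far above the rest. Levels between genes are compared in this way, as CPM divided by the deposited exonic length, and the order rests on that length. Not scaled to length, Meg3 (18089 exonic bp) and Igf2 (5723 bp) did not differ beyond their spread in WT Quad (12810 ± 853 and 12366 ± 1294 CPM). Peg3 (13314 bp) was there at 1373 CPM, above Cdkn1c (1174 CPM) and Plagl1 (1150 CPM). Igf2, the secreted growth factor that signals through the IGF1 receptor, averaged 1976 ± 285 CPM per kb in KO Dia and 1909 ± 233 CPM per kb in WT Dia (SD, n = 6 each), and 2370 ± 127 in KO TA against 2344 ± 162 CPM per kb in WT TA. By group mean it ranked between 14 and 20 of 15192 genes in all 8 groups. Meg3, Dlk1 and Cdkn1c followed in the limb muscles, at ranks 43 to 66, then Mest and Rian at ranks 75 to 129. Plagl1 and Grb10 ranked from 178 to 260 in the limb muscles and from 380 to 407 in Dia. Peg3, the lowest of the 9 per kb in all 8 groups, ranked from 351 to 474. In WT Quad the order per kb was Igf2 (2161), Meg3 (708), Dlk1 (628), Cdkn1c (608), Mest (345), Rian (312), Grb10 (159), Plagl1 (158) and Peg3 (103 CPM per kb). Grb10 (SD 10.96) and Plagl1 (SD 13.4) did not differ beyond their spread, and neither did Dlk1 (SD 39.8) and Cdkn1c (SD 28.5).

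**Figure D1:**
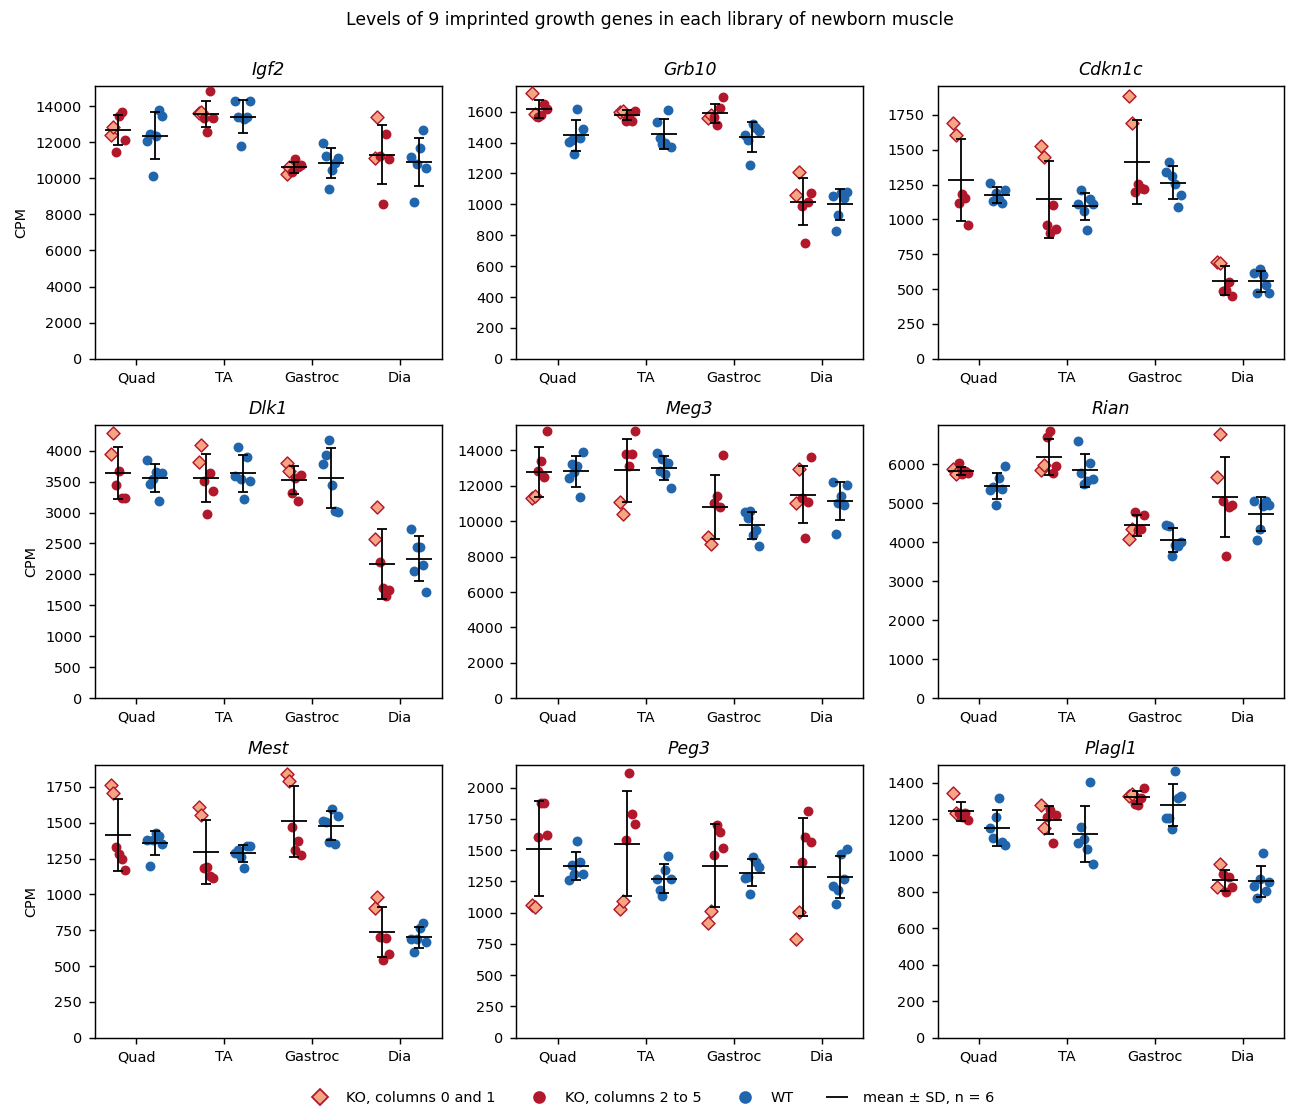
Levels of the 9 genes in CPM (y axis, from 0, own scale in each panel) by muscle, with KO left of WT; each point is 1 library, diamonds are KO columns 0 and 1, and black marks are the mean and SD of 6 libraries. The diamonds lie above the other KO libraries for Cdkn1c and Mest and below them for Peg3 in each of the 4 muscles, and Dia lies below the limb muscles for Cdkn1c and Mest.

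The genes lie in known imprinted regions of mm10. Igf2 (ENSMUSG00000048583) is at chr7:142650766-142666816 on the minus strand and Cdkn1c (ENSMUSG00000037664) at chr7:143458350-143461050, also minus. Dlk1 (chr12:109452823-109463336), Meg3 (chr12:109541001-109571726) and Rian (chr12:109603940-109661716) follow each other on the plus strand of chromosome 12 in 1 imprinted cluster. Mest is at chr6:30723547-30748455 (plus), Peg3 at chr7:6703892-6730421 (minus), Grb10 at chr11:11930508-12038683 (minus) and Plagl1 at chr10:13090691-13131694 (plus). Exons of Igf2 overlap those of Igf2os on the opposite strand and of Gm49394 on the same strand, Mest exons overlap Copg2, Cdkn1c exons overlap Gm44732 and Meg3 exons overlap Gm26906, all on the opposite strand. The library kit keeps strand, but the sources do not state that the counting used it, so reads of these neighbours may be included.

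None of the 9 genes passed the test for KO against WT in any of the 4 muscles. The test was edgeR's quasi-likelihood F test over all genes of a muscle, with Benjamini-Hochberg adjustment and a threshold of 0.05. Beside these 0 of 9 members, 0% of 14710 genes passed in Quad (0 genes; 1020 had an unadjusted p under 0.05), 0.0973% in TA (14 genes), 0.157% in Gastroc (23 genes) and 0.0069% in Dia (1 gene). DESeq2 also called 0 of the 9 in each muscle, beside 0.441% of genes in Quad (71 genes), 0.77% in TA, 0.584% in Gastroc and 0.182% in Dia. At an unadjusted p under 0.05, edgeR gave Grb10 in Quad, beside the 1020 of 14710 genes, and in Gastroc, and no member in TA or Dia. DESeq2 gave Rian and Grb10 in Quad and Grb10 in TA and Gastroc. The share of all genes at this level is given here for edgeR in Quad only. Grb10 and Rian are therefore not shown to stand out from other genes at this level. In no muscle were all KO libraries above or below all WT libraries for any member (0 of 9 in each, beside 0.501% of genes in Quad, 0.637% in TA, 0.512% in Gastroc and 0.248% in Dia). The median log2 change over the 9 was 0.11 in Quad, 0.067 in TA, 0.064 in Gastroc and 0.051 in Dia, beside 0.0095, 0.0068, 0.0069 and 0.010 over all genes of those muscles.

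Igf2 was at nearly the same level in both genotypes. In Quad its lowest, median and highest levels were 11430, 12643 and 13651 CPM in KO and 10121, 12391 and 13776 CPM in WT. In Dia they were 8558, 11179 and 13400 CPM in KO and 8669.9, 10976 and 12674 CPM in WT. The groups overlapped throughout in these muscles. The log2 change of KO over WT ± SE was 0.04 ± 0.08 in Quad (95% interval -0.12 to 0.21), 0.02 ± 0.06 in TA (-0.12 to 0.16), -0.03 ± 0.07 in Gastroc (-0.17 to 0.11) and 0.05 ± 0.12 in Dia (-0.20 to 0.31). An increase of Igf2 beyond 1.16-fold in Quad or 1.24-fold in Dia lay outside the 95% interval.

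Grb10, an adaptor that binds the insulin and IGF1 receptors and dampens their signal, had the smallest p of the 9 in Quad, TA and Gastroc, and lay slightly higher in KO. In Quad its lowest, median and highest levels were 1565, 1601 and 1719.8 CPM in KO and 1323, 1424 and 1619 CPM in WT. In TA they were 1540.2, 1588 and 1607 CPM in KO and 1372, 1412 and 1611 CPM in WT, and in Gastroc 1516, 1574 and 1694 CPM in KO and 1252, 1464 and 1519.7 CPM in WT. All 6 KO libraries of each limb muscle lay above the WT median, and the highest WT library of each reached into or past the KO range. The share of all genes with every KO library above the WT median was not counted. The limb muscles of a KO column are also not independent, so they are no separate repeats. The log2 change was 0.17 ± 0.06 in Quad (adjusted p = 0.523), 0.12 ± 0.06 in TA (adjusted p = 0.667) and 0.15 ± 0.07 in Gastroc (adjusted p = 0.693). In Dia Grb10 was at 749, 1039.9 and 1207 CPM in KO and 830.3, 1046 and 1077 CPM in WT, and the change was 0.03 ± 0.11.

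In the fit of all 48 libraries, which gives 1 KO effect shared by the muscles, Grb10 was the only one of the 9 to pass, by 0.11 ± 0.03 on the log2 scale (1.08-fold, 95% interval 1.03 to 1.14, adjusted p = 0.0319). It treats all 48 libraries as independent, although KO columns of 1 number deviated together, and WT columns could not be tied together, so its p-values are likely too small. Beside 1 of 9 members, 7.64% of 15090 genes passed, 4.97% higher and 2.67% lower. DESeq2 called Grb10 alone as well (adjusted p = 0.0139), beside 9.24% of genes. The call was lost without WT column 2 of Quad or WT column 2 of Gastroc (adjusted p = 0.0514 each) and without KO columns 0 and 1 (0.087 ± 0.039, adjusted p = 0.0874). Rian followed at 0.11 ± 0.04 (adjusted p = 0.0777, and 0.0143 without KO column 3 of Dia), then Plagl1 at 0.068 ± 0.034 (adjusted p = 0.215) and Peg3 at 0.14 ± 0.08 (adjusted p = 0.294). The test for unequal KO effects in the 4 muscles called 0 of the 9 with edgeR and with DESeq2, and 0 had an unadjusted p under 0.05, beside 0.0133% of 15090 genes called with edgeR and 0.0224% with DESeq2. Without KO columns 0 and 1 it also called 0 of the 9, beside 0.033% of genes.

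**Figure D2:**
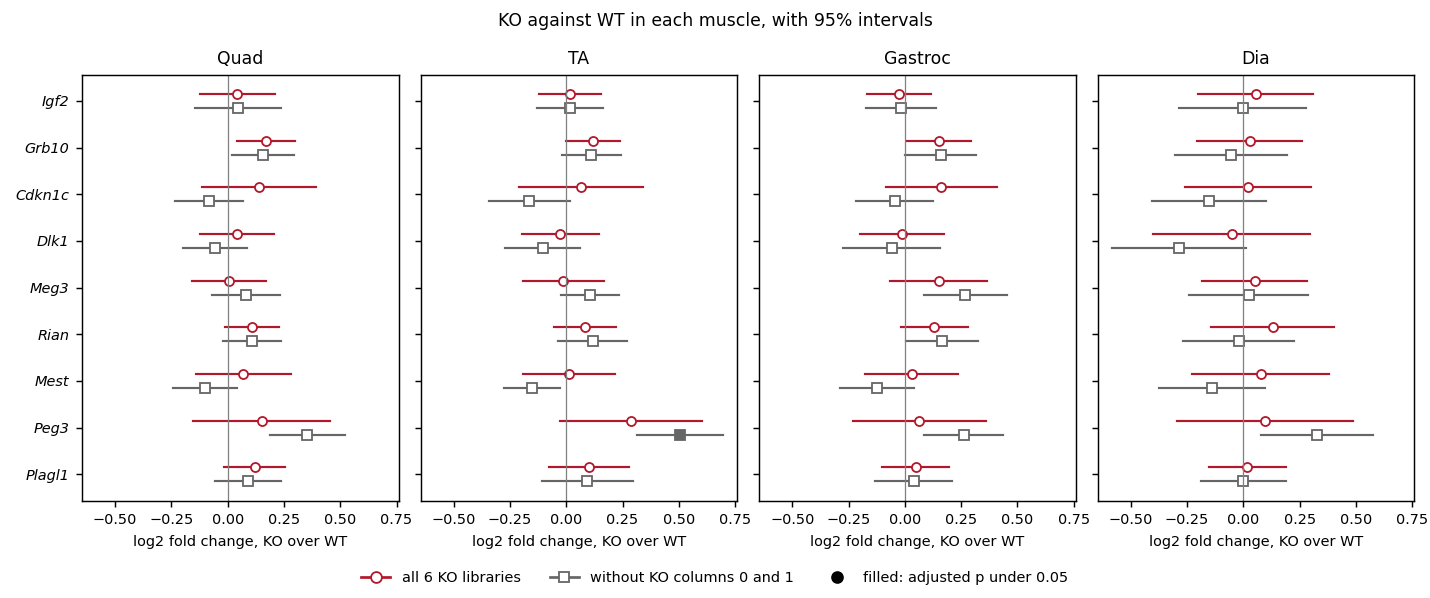
Log2 fold change of KO over WT (x axis) of each gene (y axis) in the 4 muscles with 95% intervals; red circles use all 6 KO libraries, grey squares leave out KO columns 0 and 1, and filled symbols have an adjusted p under 0.05. Only Peg3 in TA without KO columns 0 and 1 is filled (0.50 ± 0.09), and the grey squares of Cdkn1c and Mest lie below 0 where the red circles lie above it.

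Cdkn1c, which encodes the cyclin-dependent kinase inhibitor p57, did not pass between the genotypes, and the KO libraries fell into separate ranges. In Quad it was at 1694 and 1606 CPM in KO columns 0 and 1, at 958 to 1181 CPM in KO columns 2 to 5 and at 1114 to 1261 CPM in WT. In TA the same columns had 1526 and 1444 CPM, the other KO libraries 899 to 1106 CPM and the WT libraries 925 to 1214 CPM. The same held in Gastroc (1887 and 1692, against 1196 to 1253 in the other KO libraries and 1089 to 1413 CPM in WT) and in Dia (692 and 689.9, against 452 to 554 and 470.3 to 645 CPM). KO columns 0 and 1 thus lay above every other library of their muscle in 4 of 4 muscles. The log2 change over all KO libraries was 0.14 ± 0.12 in Quad, 0.07 ± 0.13 in TA, 0.16 ± 0.12 in Gastroc and 0.02 ± 0.13 in Dia, and without these columns it was -0.083 ± 0.070, -0.16 ± 0.08, -0.046 ± 0.080 and -0.15 ± 0.12 in the same order of muscles. None of these 8 values passed (adjusted p from 0.331 to 0.9996). The share of all genes with KO columns 0 and 1 above or below every other library was not counted. Such a split is therefore not shown to be particular to Cdkn1c, or to Mest and Peg3 below.

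Mest, which encodes a hydrolase-like protein read from the paternal copy in mesoderm, was highest in the same KO columns as Cdkn1c. In Quad, KO columns 0 and 1 had 1761 and 1706 CPM, KO columns 2 to 5 had 1169.5 to 1334 CPM and WT had 1197 to 1432 CPM. In Dia these columns had 908 and 981 CPM, the remaining KO libraries 543 to 706 CPM and WT 595 to 798 CPM. In TA (1608 and 1552 CPM) and Gastroc (1841 and 1794 CPM) the same columns again lay above all other libraries, whose highest were a WT library of 1337 CPM in TA and a WT library of 1594 CPM in Gastroc. The log2 change was 0.01 ± 0.10 in TA and 0.08 ± 0.14 in Dia with all libraries.

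Peg3, a zinc-finger protein that is read from the paternal copy and is strongly expressed in muscle progenitors, showed the reverse order. In Quad it was at 1058 and 1041 CPM in KO columns 0 and 1, at 1602 to 1879.9 CPM in KO columns 2 to 5 and at 1263 to 1569 CPM in WT. In TA it was at 1025 and 1093 CPM in KO columns 0 and 1, at 1579 to 2117 CPM in KO columns 2 to 5 and at 1129 to 1452 CPM in WT. In Gastroc it was at 919 and 1013 CPM, against 1461 to 1702 CPM in the other KO libraries and 1146 to 1445 CPM in WT, and in Dia at 790.4 and 1001 CPM, against 1408 to 1814 CPM and 1069 to 1505 CPM. KO columns 0 and 1 lay below all other libraries of their muscle in 4 of 4 muscles, and KO columns 2 to 5 lay above all WT libraries in Quad, TA and Gastroc but not in Dia. Over all KO libraries the log2 change was 0.15 ± 0.14 in Quad, 0.29 ± 0.15 in TA, 0.06 ± 0.14 in Gastroc and 0.09 ± 0.18 in Dia, none past the test. How many of all genes had KO libraries on either side of WT in this way was not counted.

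Without KO columns 0 and 1 Peg3 was higher in KO by 0.50 ± 0.09 in TA (1.42-fold, adjusted p = 0.0182), where 1 of 9 members and 1.5% of genes passed. In the other muscles it was at 0.35 ± 0.08 in Quad (adjusted p = 0.0525), 0.26 ± 0.08 in Gastroc (adjusted p = 0.187) and 0.33 ± 0.11 in Dia (adjusted p = 0.196), where 0 of 9 members and 0.893%, 0.728% and 0.489% of genes passed. In the shared fit without these columns 5 of the 9 passed, beside 31% of genes (15.6% higher and 15.4% lower). Peg3 (0.36 ± 0.05, adjusted p = 2.76e-07) and Meg3 (0.11 ± 0.04, adjusted p = 0.0437) were higher in KO, and Mest (-0.14 ± 0.04, adjusted p = 0.00334), Cdkn1c (-0.12 ± 0.04, adjusted p = 0.0324) and Dlk1 (-0.13 ± 0.05, adjusted p = 0.0420) were lower. The columns left out were picked with measured levels known, so these p-values describe the remaining libraries and are no independent test.

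Dlk1, a transmembrane protein related to the Notch ligands that restrains fat precursor differentiation, overlapped between the genotypes in every muscle. In Quad it was at 3227, 3557 and 4278 CPM in KO and 3187, 3586 and 3856 CPM in WT (lowest, median and highest), with a log2 change of 0.04 ± 0.08. In Dia it was at 1644, 1994 and 3086 CPM in KO and 1713, 2295 and 2739 CPM in WT, with a change of -0.05 ± 0.16. KO columns 0 and 1 were its highest KO libraries in 4 of 4 muscles, and in Quad (3948 and 4278 CPM) they also lay above all WT libraries.

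Meg3 and Rian are long noncoding RNAs read from the maternal copy of the Dlk1 cluster, and Rian is a host of small nucleolar RNAs. Meg3 was at 11317, 12690 and 15103 CPM in KO Quad and 11383, 12941 and 13919.9 CPM in WT Quad, with a log2 change of 0.01 ± 0.08. Its largest change was in Gastroc, where it was at 8713, 10906 and 13745 CPM in KO and 8626, 9842 and 10563 CPM in WT (0.15 ± 0.10, adjusted p = 0.9004). KO columns 0 and 1 were its lowest KO libraries in the 3 limb muscles (11317 and 11440.2 CPM in Quad, 11072 and 10406 in TA, 9116 and 8713 in Gastroc) but not in Dia (11011 and 12956 CPM, within the others). Rian was at 5732, 5792 and 6019 CPM in KO Quad and 4959, 5386 and 5956 CPM in WT Quad, with a change of 0.11 ± 0.06 (adjusted p = 0.805). All 6 KO libraries of each limb muscle lay above the WT median of Rian, and 4 of 6 did so in Dia. As for Grb10, the share of all genes with this pattern was not counted, and the muscles are no separate repeats.

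Plagl1, a zinc-finger factor known to regulate other imprinted genes, overlapped between the genotypes in every muscle. Its lowest, median and highest levels were 1194, 1232 and 1342 CPM in KO Quad and 1059, 1122 and 1315 CPM in WT Quad, with a log2 change of 0.12 ± 0.06 (adjusted p = 0.813). In the other muscles the change was 0.10 ± 0.08 in TA, 0.05 ± 0.07 in Gastroc and 0.02 ± 0.08 in Dia. The SD of its log2 CPM was smaller in KO than in WT in 4 of 4 muscles (0.038 to 0.094 in KO and 0.12 to 0.19 in WT).

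The spread between libraries of 1 group sorted the genes in another way. For Cdkn1c, Meg3, Mest and Peg3 the SD of log2 CPM was larger in KO than in WT in 4 of 4 muscles. For Peg3 it ran from 0.38 to 0.46 in KO and from 0.11 to 0.19 in WT, and for Cdkn1c from 0.27 to 0.33 in KO and from 0.067 to 0.20 in WT. For Igf2 and Grb10 it was larger in KO in 1 of 4 muscles, for Rian in 2 and for Dlk1 in 3. No test of the spread was made. The share of all genes with a larger or a smaller SD in KO was not counted, so these patterns are not shown to be particular to the members.

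Other RNAs moved with KO columns 0 and 1. The summed level of 8 liver markers was 86.1 and 139 CPM in these columns of Quad, 26.2 to 51.2 CPM in the other KO libraries and 37.1 to 53.2 CPM in WT. In Dia it was 7879 and 12676 CPM in these columns, 139 to 4978 CPM in the other KO libraries and 501 to 7537 CPM in WT, and in TA it was 117 and 127 CPM in these columns, 22.9 to 42.1 CPM in the other KO libraries and 22.5 to 56.2 CPM in WT. In Gastroc it was 72.6 and 59.7 CPM in these columns, 24.3 to 39.0 CPM in the other KO libraries and 27.2 to 63.3 CPM in WT, so 1 of these columns lay within the WT range there. The summed level of 8 fibroblast markers (among them Col1a1, Col3a1 and Pdgfra) was 37491 and 33435 CPM in these columns of Quad, against 24565 to 27141 CPM in the other KO libraries and 25680 to 33614 CPM in WT, and 25882 and 26772 CPM in Dia, against 18209 to 22393 CPM and 23056 to 25530 CPM. The 8 fibre markers overlapped in the limb muscles (83076 and 76349 CPM in these columns of Quad, 73852 to 81636 CPM in the other KO libraries and 65890 to 81239 CPM in WT). In Dia they summed to 78221 and 87529 CPM in these columns, 53408 to 73588 CPM in the other KO libraries and 57837 to 80951 CPM in WT, and 6 erythroid markers to 739 and 600.1 CPM in these columns, against 362 to 394 CPM in the other KO libraries, with every WT library below these columns. Fibroblast markers summed to 33921 and 43450 CPM in these columns of TA (28748 to 38385 CPM in WT). In Gastroc they summed to 40995 and 48363 CPM (24867 to 39293 CPM in WT). The 5 macrophage markers measured summed lower in these columns of Quad (144 and 159, against 170 to 210 CPM in WT) and Gastroc (134 and 139, against 159 to 222). They overlapped WT in TA and were higher in Dia (249 and 252, against 208 to 246 CPM in WT). At most 1 liver marker and no fibroblast or fibre marker was at 0 in a Quad library. In bulk RNA, more cells of a type and more RNA per cell cannot be told apart. The part of liver, fibroblast, fibre, macrophage or erythroid RNA in the ranges of Cdkn1c, Mest and Peg3 was not tested.

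Start-site windows of 4 genes that separated these columns are shown because Mest and Dlk1 were high, and Peg3 and Meg3 low, in the same limb libraries. They run from 250 bases before to 50 bases after an annotated start, are written 5′ to 3′ on the gene's strand, and come from RefSeq on GRCm38.p6, where 8 of the 9 members had a window. Capitals mark matches on either strand to TGACGTCA, the palindromic cAMP response element, and to CANNTG, the E-box of muscle and other helix-loop-helix factors; these motifs do not overlap here. The motifs were picked after the levels were seen. TGACGTCA is in 1.79% and CANNTG in 72.3% of all 32851 windows, and GGGGCCCC, also searched, is in 1.08% and, among the members, in the Peg3 window only.
Peg3, chr7:6730370-6730669, minus strand: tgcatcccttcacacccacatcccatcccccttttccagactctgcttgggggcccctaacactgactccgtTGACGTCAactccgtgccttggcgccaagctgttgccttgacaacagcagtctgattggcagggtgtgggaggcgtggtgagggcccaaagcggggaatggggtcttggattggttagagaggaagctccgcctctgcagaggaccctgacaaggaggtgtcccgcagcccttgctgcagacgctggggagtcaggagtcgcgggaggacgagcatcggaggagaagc
Meg3, chr12:109540746-109541045, plus strand: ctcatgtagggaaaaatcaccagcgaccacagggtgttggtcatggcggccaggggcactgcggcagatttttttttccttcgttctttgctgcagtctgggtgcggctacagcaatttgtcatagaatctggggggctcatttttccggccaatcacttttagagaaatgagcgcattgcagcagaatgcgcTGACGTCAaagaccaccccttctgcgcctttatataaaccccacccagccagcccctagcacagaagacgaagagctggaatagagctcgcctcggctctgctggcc
Mest, chr6:30737800-30738099, plus strand: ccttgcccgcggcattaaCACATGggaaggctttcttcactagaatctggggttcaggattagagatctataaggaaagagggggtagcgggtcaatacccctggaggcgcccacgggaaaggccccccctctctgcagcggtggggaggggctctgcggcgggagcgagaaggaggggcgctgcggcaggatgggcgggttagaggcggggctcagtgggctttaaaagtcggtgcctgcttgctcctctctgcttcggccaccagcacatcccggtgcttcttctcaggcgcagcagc
Dlk1, chr12:109452573-109452872, plus strand: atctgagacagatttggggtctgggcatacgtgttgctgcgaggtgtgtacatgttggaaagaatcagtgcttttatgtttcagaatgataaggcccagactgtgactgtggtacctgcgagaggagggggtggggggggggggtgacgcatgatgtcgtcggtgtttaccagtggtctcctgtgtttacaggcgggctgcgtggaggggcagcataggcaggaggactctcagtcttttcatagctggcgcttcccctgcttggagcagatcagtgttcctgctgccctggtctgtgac
TGACGTCA stands once in the Peg3 window and once in the Meg3 window and in no other window of the members, and the Mest window holds 1 E-box match and no TGACGTCA. The Dlk1 window holds neither motif. Windows at a second annotated start exist for Meg3 and at 2 more for Mest. A match is a description of letters and names no bound factor.

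The diaphragm differed from the limb muscles in 5 of the 9 genes, all lower in Dia, in both genotypes. Cdkn1c, Mest, Dlk1, Grb10 and Plagl1 passed in KO and in WT, and no member passed as higher. This was read from fits of the 24 libraries of a genotype, as Dia minus the mean of the 3 limb muscles. These fits treat the 24 libraries as independent, although libraries of both genotypes deviated together across muscles. In KO, 49.3% of 14896 genes passed (26.3% higher, 23% lower), and in WT 57% of 14831 genes (29.9% higher, 27.2% lower), so the share of members called is near that of all genes, and their common direction is not tested. The median log2 change over the 9 was -0.53 in KO and -0.46 in WT, beside 0.00695 and 0.0021 over all genes.

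Cdkn1c was at 452, 524 and 692 CPM (lowest, median and highest) in 6 KO Dia libraries and at 899, 1205 and 1887 CPM in 18 KO limb libraries. In WT it was at 470.3, 566 and 645 CPM in Dia and 925, 1160.3 and 1413 CPM in limb. Every Dia library lay below every limb library of its genotype. The log2 change was -1.18 ± 0.15 in KO (adjusted p = 3.86e-07) and -1.08 ± 0.07 in WT (adjusted p = 2.08e-12), a little over a halving of the level (0.441-fold and 0.473-fold). Mest was at 543, 702 and 981 CPM in KO Dia and 1116, 1322 and 1841 CPM in KO limb, and at 595, 689.6 and 798 CPM in WT Dia and 1183, 1358 and 1594 CPM in WT limb, again without overlap. Its change was -0.93 ± 0.13 in KO (adjusted p = 1.78e-06) and -0.97 ± 0.06 in WT (adjusted p = 2.54e-13).

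Dlk1 was lower in Dia by 0.71 ± 0.11 on the log2 scale in KO (-0.71, adjusted p = 4.67e-06) and by 0.66 ± 0.08 in WT (-0.66, adjusted p = 1.49e-07). Its Dia libraries lay below all limb libraries in WT (1713 to 2739 CPM in Dia, 3004 to 4170.3 CPM in limb) but reached into the limb range in KO (1644 to 3086 CPM in Dia, 2975 to 4278 CPM in limb), where the highest Dia library was column 1. Grb10 changed by -0.65 ± 0.06 in KO (749 to 1207 CPM in Dia, 1516 to 1719.8 CPM in limb) and by -0.53 ± 0.06 in WT (830.3 to 1077 CPM in Dia, 1252 to 1619 CPM in limb), without overlap in either. Plagl1 changed by -0.53 ± 0.05 in KO (801 to 954 CPM in Dia, 1069 to 1369 CPM in limb) and by -0.46 ± 0.07 in WT (769 to 1012 CPM in Dia, 955 to 1464 CPM in limb), with an overlap in WT only. In all, 4 of 9 members had every Dia library below every limb library in KO, beside 4.48% of genes, and 4 of 9 in WT, beside 6.95% of genes.

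**Figure D3:**
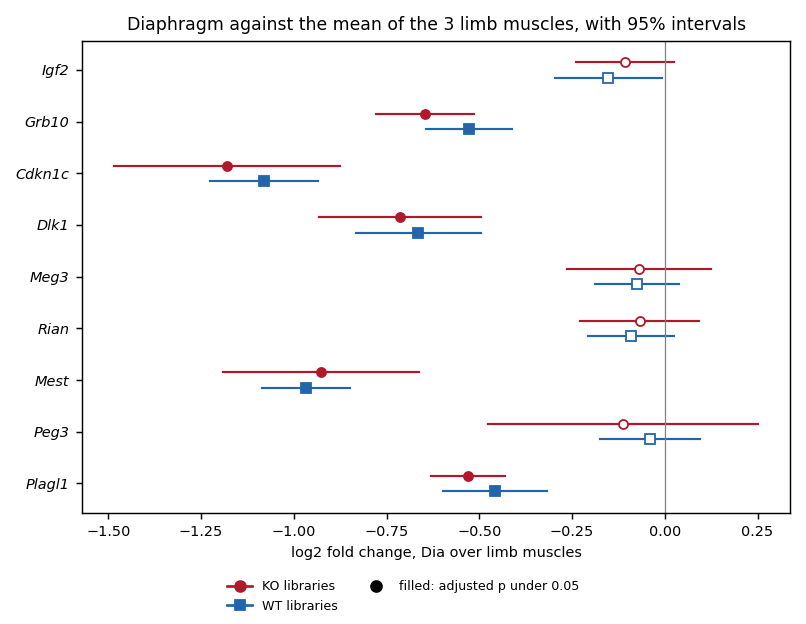
Log2 fold change of Dia over the mean of the 3 limb muscles (x axis) for each gene (y axis), with 95% intervals, in KO libraries (red circles) and WT libraries (blue squares); filled symbols have an adjusted p under 0.05. The same 5 genes are filled in both genotypes, from -1.18 for Cdkn1c in KO to -0.46 for Plagl1 in WT.

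The other 4 genes did not pass between Dia and limb in the edgeR fits of all libraries without a block for the column number. Igf2 was at -0.11 ± 0.06 in KO (adjusted p = 0.174) and -0.15 ± 0.07 in WT (adjusted p = 0.0657). DESeq2 called it in WT (adjusted p = 0.0499), and so 6 of 9 members beside 56.3% of genes. With 1 library left out edgeR called Igf2 in 1 of 24 fits in KO (without column 1 of Dia, adjusted p = 0.0386) and in 5 of 24 in WT (without column 2 of Quad, TA or Gastroc or column 3 or 4 of Dia, adjusted p from 0.0150 to 0.0485). Meg3 was at -0.07 ± 0.09 in KO and -0.07 ± 0.06 in WT, Rian at -0.07 ± 0.08 in KO and -0.09 ± 0.06 in WT, and Peg3 at -0.11 ± 0.18 in KO and -0.04 ± 0.07 in WT. With the column number as a block in KO, Peg3 passed as lower in Dia (-0.12 ± 0.04, adjusted p = 0.0136), Igf2, Meg3 and Rian still did not (adjusted p = 0.0909, 0.447 and 0.381), and 6 of 9 members, all lower, passed beside 67.6% of genes (35.1% higher, 32.5% lower). Without KO columns 0 and 1, and with no block, Rian passed in KO (-0.25 ± 0.08, adjusted p = 0.0144), where 6 of 9 members, all lower, and 47.1% of genes passed (24.8% higher, 22.3% lower). Dlk1 and its cluster neighbours Meg3 and Rian thus had unlike values between Dia and limb, though the difference between them was not tested.

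Markers of other cell types differed between Dia and limb as well. The summed level of 8 liver markers was 139 to 12676 CPM in KO Dia and 22.9 to 139 CPM in KO limb, and 501 to 7537 CPM in WT Dia and 22.5 to 63.3 CPM in WT limb. The 5 progenitor markers measured (among them Pax7 and Myf5) summed to 241 to 364 CPM in KO Dia and 326 to 458 CPM in KO limb, and to 289.7 to 425 CPM in WT Dia and 341 to 481 CPM in WT limb. Of these, 3 were lower in Dia by the test in KO (4 with the column number as a block) and 4 in WT. The 8 fibroblast markers summed to 18209 to 26772 CPM in KO Dia and 24565 to 48363 CPM in KO limb, and to 23056 to 25530 CPM in WT Dia and 24867 to 39293 CPM in WT limb. By the test 2 of the 8 were higher in Dia (Dpt and Lum) and 5 lower in KO, and the same 2 were higher and 4 lower in WT. Mesothelial markers, of which 2 of 6 were in all tables, summed to 123 to 258 CPM in KO Dia and at most 3.68 CPM in KO limb, and to 122 to 255 CPM in WT Dia and at most 2.25 CPM in WT limb. All 6 erythroid markers measured were higher in Dia (median 1.47 in KO and 1.34 in WT on the log2 scale), as were 6 of 6 endothelial markers in KO and 5 of 6 in WT. Of 7 cartilage and tendon markers 5 were lower in Dia in KO and none higher, and 6 were lower and 1 higher in WT (median -1.35 and -0.946), and of 8 fibre markers 4 were higher and 1 lower in each genotype. Macrophage markers were higher in 4 of 5 in KO and 3 of 5 in WT. At most 3 liver markers, and no marker of the other lists named here, were at 0 in a library. The part of these cells in the changes of Cdkn1c, Mest, Dlk1, Grb10 and Plagl1 was not tested.

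Among the limb muscles of WT, Meg3 and Rian were lower in Gastroc than in TA and Quad. The WT fit has no block and treats its libraries as independent, although some deviated together across muscles. Meg3 was at 11867, 13059 and 13839 CPM in WT TA and at 11383, 12941 and 13919.9 CPM in WT Quad, against 8626, 9842 and 10563 CPM in WT Gastroc, so that every TA and Quad library lay above every Gastroc library. It was higher than in Gastroc by 0.43 ± 0.07 in TA (adjusted p = 3.99e-05) and 0.40 ± 0.07 in Quad (adjusted p = 0.000134). Rian was at 5478, 5689 and 6583 CPM in WT TA and 4959, 5386 and 5956 CPM in WT Quad, against 3643, 3963 and 4437 CPM in WT Gastroc, also without overlap. Its changes were 0.54 ± 0.07 in TA (adjusted p = 2.31e-06) and 0.44 ± 0.07 in Quad (adjusted p = 6.48e-05). The share of all genes without overlap between these muscles was not counted, so the separation is not shown to be particular to Meg3 and Rian. The 8 fibre markers stood apart in the same direction. They summed to 68214 to 79507 CPM in WT TA and 65890 to 81239 CPM in WT Quad, against 37273 to 50252 CPM in WT Gastroc, and 7 of the 8 were higher than in Gastroc in each comparison (median 0.638 for TA and 0.626 for Quad on the log2 scale). Their part in the differences of Meg3, Rian and the other members between limb muscles was not tested.

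Igf2 was higher in TA than in Gastroc, by 0.32 ± 0.09 (adjusted p = 0.00840), with 11771 to 14306 CPM in WT TA and 9431 to 11968 CPM in WT Gastroc, ranges that touch. Mest was lower in TA than in Gastroc by a small step (-0.19 ± 0.07, adjusted p = 0.0446), and this call was lost in 11 of 24 fits that left out 1 library each, with adjusted p up to 0.108. The comparison of TA with Gastroc thus called 4 of 9 members, 3 higher and 1 lower, beside 18.9% of 14831 genes (11.5% higher, 7.32% lower; DESeq2 also 4 of 9, beside 20.4%), and that of Quad with Gastroc 2 of 9, both higher, beside 14.6% (9.31% higher, 5.27% lower). Quad against TA called 0 of 9 with edgeR and with DESeq2, beside 2.06% of genes with edgeR (0.863% higher, 1.2% lower) and 2.8% with DESeq2, and 0 of the 9 had an unadjusted p under 0.05. In KO libraries, Rian was again higher in Quad (0.39 ± 0.09, adjusted p = 0.00975) and in TA (0.48 ± 0.09, adjusted p = 0.00117) than in Gastroc, and Igf2 in TA than in Gastroc (0.35 ± 0.08, adjusted p = 0.00360), while Meg3 did not pass (0.24 ± 0.11, adjusted p = 0.249, for Quad and 0.25 ± 0.11, adjusted p = 0.180, for TA). In KO, 0 of 9 members and 0.691% of genes passed for Quad against TA, and 7.89% of genes passed for Quad against Gastroc and 11.4% for TA against Gastroc.

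With the KO column number as a block, more members passed between the KO limb muscles. Meg3 was then higher in Quad (0.24 ± 0.08, adjusted p = 0.0297) and in TA (0.25 ± 0.08, adjusted p = 0.0203) than in Gastroc, as it was in WT without a block. Cdkn1c was lower in Quad (-0.15 ± 0.05, adjusted p = 0.0275) and in TA (-0.31 ± 0.05, adjusted p = 3.92e-05) than in Gastroc, and Igf2 was higher in Quad (0.25 ± 0.07, adjusted p = 0.0113). Mest (-0.22 ± 0.05, adjusted p = 0.00209) and Plagl1 (-0.14 ± 0.05, adjusted p = 0.0318) were lower and Peg3 (0.16 ± 0.05, adjusted p = 0.0170) higher in TA than in Gastroc. In all, 4 of 9 members passed for Quad against Gastroc beside 30.4% of genes (15.6% higher, 14.9% lower), 7 of 9 for TA against Gastroc beside 34.8% (17.2% higher, 17.5% lower), and 0 of 9 for Quad against TA beside 4.46% (2.06% higher, 2.4% lower).

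Within the chromosome 12 cluster, the balance of the paternally read Dlk1 to the maternally read Meg3 was compared as a ratio of counts, which is not scaled to length. It was 0.214, 0.271 and 0.374 (lowest, median and highest) in KO Quad and 0.261, 0.278 and 0.309 in WT Quad. In Dia it was 0.128, 0.196 and 0.238 in KO and 0.142, 0.217 and 0.224 in WT. The groups overlapped, and the KO minus WT difference of mean log2 ratios was 0.035 in Quad, -0.0071 in TA, -0.14 in Gastroc and -0.12 in Dia. The ratio of Rian to Meg3 differed by 0.11 in Quad and in TA, -0.0041 in Gastroc and 0.067 in Dia. In exact two-sided permutation tests over the 924 ways to split 12 libraries, none of the 8 ratio tests passed (p from 0.199 to 0.970, adjusted p from 0.733 to 0.970). KO columns 0 and 1 had Dlk1 to Meg3 ratios of 0.418 and 0.422 in Gastroc. Without them the ratio in Gastroc was lower in KO by 0.32 on the log2 scale (-0.32). The exact permutation p over splits of the remaining libraries was 0.00952, and the adjusted p 0.0762. These columns were picked with measured levels known, and had the highest Dlk1 and lowest Meg3 of the KO Gastroc libraries. Leaving them out therefore had to lower the KO ratio, and this p is no independent test.

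Genes whose levels ran most like the members were looked up over the 48 libraries, among 13800 genes tested in every muscle, by Pearson r of log2 CPM. This is a description, since all points share the muscles and library depth. Cdkn1c and Mest were each other's nearest gene (r = 0.971), followed for both by Hn1 (0.967), and then by Cntfr for Cdkn1c (0.957) and Traf3ip3 for Mest (0.962). Dlk1 ran most like Col23a1 (0.925), Fam122b (0.924) and Hn1 (0.922). Rian, at 0.811, was the nearest gene to Igf2, ahead of Tpm2 (0.810) and Ehd4 (0.790), and the nearest to Rian itself were Ldb3 (0.910), a Z-disc protein, Ehd4 (0.854) and Asph (0.853). Grb10 ran most like Fap (0.926), a fibroblast protease, with Trim35 (0.922) and Tm6sf1 (0.920), and Plagl1 like Capn6 (0.928), Col12a1 (0.913) and Agtr2 (0.907). Peg3 ran with Mbtd1 (0.90), Stag2 (0.899) and Gigyf2 (0.896), and Meg3 with Smyd2 (0.838), Nrap (0.836) and Mir1906-1 (0.830), which lies within Meg3.

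With the 8 group means taken out, the nearest genes changed. Cdkn1c was then nearest to Chrng (0.910), the fetal subunit of the muscle acetylcholine receptor, Pcdhgc4 (0.898) and Ptges3l (0.893), and Mest to P4ha1 (0.893), Fto (0.889) and Copz2 (0.888). Dlk1 was nearest to Cntfr (0.818) and the collagen genes Col6a2 (0.786) and Col6a1 (0.784). Among the genes reported, Peg3 was nearest to 1700020I14Rik (0.945) and Akap9 (0.933), and Meg3 to Tmem38b (0.861), Pde4dip (0.858) and 3425401B19Rik (0.823). Igf2 was nearest to Rab40b (0.765), Gpc4 (0.755) and Itgb1bp2 (0.751), Rian to Rbfox1 (0.822), Atp1b4 (0.805) and Casq2 (0.797), Grb10 to Atp1b4 (0.811), Rian (0.795) and Prepl (0.755), and Plagl1 to Piezo2 (0.692), Postn (0.683) and Fermt2 (0.667).

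Among the 9 themselves, within groups, the pairs differed between the genotypes in these libraries. Over the 24 KO libraries, r was 0.91 for Cdkn1c with Mest, -0.88 for Cdkn1c with Peg3 and -0.89 for Mest with Peg3, and over the 24 WT libraries 0.43, -0.23 and 0.38 for the same pairs. Over the 16 libraries of KO columns 2 to 5 alone they were 0.31, 0.33 and -0.016, so the high values rest on KO columns 0 and 1. Rian with Grb10 was high in every such set (0.83 over KO, 0.79 over KO columns 2 to 5 and 0.76 over WT libraries), as was Igf2 with Grb10 (0.75, 0.70 and 0.62). Cdkn1c with Dlk1 was at 0.71 in KO and 0.88 in WT libraries, but at 0.24 over KO columns 2 to 5.

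**Figure D4:**
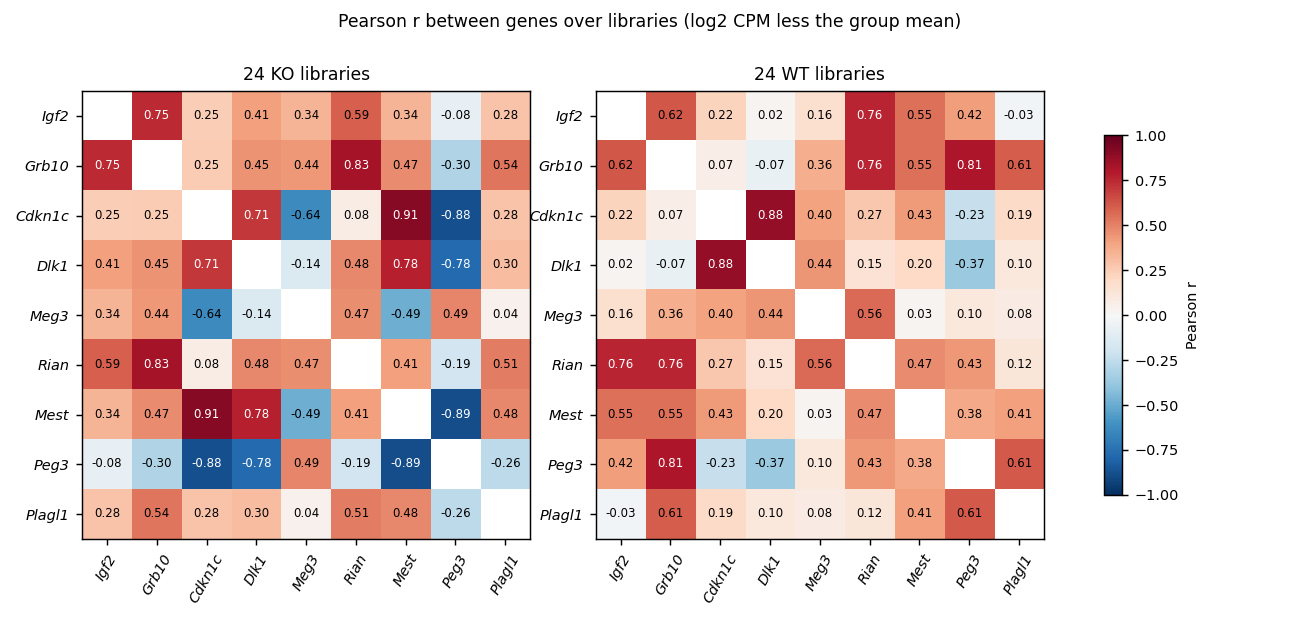
Pearson r between the 9 genes over libraries (colour and printed value), from log2 CPM less the mean of each muscle and genotype, for 24 KO libraries (left) and 24 WT libraries (right). Peg3 is strongly negative with Cdkn1c (-0.88) and Mest (-0.89) in KO, where WT has -0.23 and 0.38.

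Other genes of the same pathways were looked up by name. For KO against WT within a muscle, no gene passed among 17 to 19 tested genes read from the paternal copy, 17 or 18 from the maternal copy, 20 to 23 of the IGF pathway, 13 or 14 of CDK inhibitors and partners and 10 of Dlk and Notch partners, beside 0% of all genes in Quad, 0.0973% in TA, 0.157% in Gastroc and 0.0069% in Dia. In the shared fit, where 7.64% of all genes passed (4.97% higher, 2.67% lower), 1 of 18 paternally read genes was higher in KO, Magel2 (0.31 ± 0.07, adjusted p = 0.00230), and 1 was lower, Ndn (-0.21 ± 0.06, adjusted p = 0.0185). Of 17 maternally read genes Mirg (0.28 ± 0.06, adjusted p = 0.00352), which lies beyond Rian in the same cluster, was higher and Tssc4 (-0.20 ± 0.05, adjusted p = 0.0128) lower. Of 21 IGF pathway genes Irs2 (0.65 ± 0.11, adjusted p = 0.000146), an adaptor of insulin and IGF receptors, and Stc1 (0.44 ± 0.09, adjusted p = 0.000512) were higher and none lower, of 13 CDK genes Cdkn2d was higher (0.20 ± 0.07, adjusted p = 0.0475), and of 10 Dlk and Notch genes none passed. The shared fit treats all 48 libraries as independent, so these p-values too are likely too small.

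Between Dia and limb these lists moved in more genes, beside the 49.3% of all genes called in KO and 57% in WT. With the column number as a block, 67.6% of all genes were called in KO. Of 18 paternally read genes 11 were lower in Dia and 3 higher in KO (12 and 4 with the block). In WT 11 were lower and 5 higher. Those with the smallest p were Magel2 (-2.04 ± 0.16 in KO and -1.78 ± 0.09 in WT), Peg10 (-1.59 ± 0.12 and -1.31 ± 0.12), Peg12 (-1.24 ± 0.11 and -1.13 ± 0.09) and Ndn (-1.22 ± 0.11 and -1.12 ± 0.09). Of 17 maternally read genes 10 were lower and 4 higher in KO (11 and 5 with the block), and 8 lower and 4 higher in WT. Klf14 was lower in both (-1.12 ± 0.13 in KO and -0.97 ± 0.08 in WT). Of 13 CDK genes 9 were lower in each genotype, among them Ccnd3, a D-type cyclin (-1.19 ± 0.08 in KO and -1.14 ± 0.06 in WT), and Cdk2 (-0.70 ± 0.05 and -0.80 ± 0.04). In WT 1 was higher, and with the block 10 were lower and 2 higher in KO. The median of the 13 was -0.70 in KO and -0.68 in WT.

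The IGF pathway was split. Of 21 genes 7 were lower in Dia and 5 higher in KO (8 lower and 9 higher with the column number as a block), and 6 lower and 7 higher in WT. Igf1, the other IGF ligand, was lower (-1.36 ± 0.07 in KO and -1.34 ± 0.07 in WT), Igf2bp2, an mRNA-binding protein, was lower (-0.52 ± 0.07 and -0.57 ± 0.04), and the binding protein Igfbp6 was higher (1.54 ± 0.14 and 1.60 ± 0.07). Igfbp1, a binding protein made by the liver, was higher by 7.48 ± 0.46 in KO and 7.17 ± 0.42 in WT, in the muscle whose libraries also carried liver mRNA. The part of liver RNA in the Igfbp1 difference was not tested. Of 10 Dlk and Notch partners none was higher, and 6 were lower in KO (7 with the block) and 7 in WT. Among them were Jag2 (-0.64 ± 0.12 and -0.67 ± 0.12), Notch1 (-0.35 ± 0.10 and -0.47 ± 0.08), Notch2 (-0.37 ± 0.08 and -0.35 ± 0.08) and Dll1 (-0.30 ± 0.10 and -0.41 ± 0.08).

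Between the limb muscles of WT, Mirg, in the cluster of Meg3 and Rian, was higher in TA (0.77 ± 0.12, adjusted p = 2.01e-05) and in Quad (0.61 ± 0.12, adjusted p = 0.000488) than in Gastroc. Rtl1, the paternally read gene between Dlk1 and Rian, was higher in TA than in Gastroc (0.95 ± 0.20, adjusted p = 0.000897). Insr, the insulin receptor, was higher in TA (0.63 ± 0.09) and Quad (0.54 ± 0.09) than in Gastroc. Igf1 was lower in TA than in Gastroc (-0.53 ± 0.08, adjusted p = 2.26e-05), where Igf2 was higher.

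The authors' deposited tables also test single exons, and they flagged Peg3 in 2 muscles. In the authors' deposited table for Dia, the exon at the 5′ end of Peg3 (chr7:6730258-6730421, 164 bp) had a log2 change of -1.17 of KO over WT (the authors' adjusted p = 5.55e-10), while the gene as a whole had 0.067 in that table. In the authors' deposited table for Gastroc, an internal exon of 90 bp (chr7:6717799-6717888) had -1.51 (the authors' adjusted p = 0.00109), with 0.045 for the whole gene. Per the file headers this exon test is a chi-square test, which does not use the spread between libraries, and its exon counts per library were not analysed here. No other of the 9 genes had an exon value away from 0 in the authors' deposited tables, and their own gene test called none of the 9.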

How the data were processed

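The study measured mRNA by stranded, oligo-dT-primed sequencing in 48 libraries of newborn mouse muscle. The authors deposited raw counts per gene for each muscle, which per the file headers count alignments that overlap a gene by at least 1 base; genes with few counts had been left out. Per the file headers the authors' log2 ratios of KO over WT come from DESeq2, and a second deposited column holds the adjusted p-value of that test on a log10 scale with its sign turned, treated here as a score and turned back into p. Exonic base pairs per gene, used as length, were deposited by the authors in the same tables. Picard and mm10 are named in the submitters' processing notes, and no source used here names the aligner. A further 96 deposited per-sample columns were not used.

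From the counts, edgeR 4.0.16 (TMM factors, filterByExpr, quasi-likelihood F test) in R 4.3.3 tested KO against WT in each muscle and, on the 15192 genes in all 4 tables, a shared KO effect, equality of the effect across muscles, and muscle against muscle. Benjamini-Hochberg adjustment ran over all genes of a fit, with a threshold of 0.05. SE is the size of the log2 change over the square root of F. CPM use TMM factors over the 48 libraries. Ratios of counts had 0.5 added and were tested by exact permutation. The fits were checked on simulated data. Deviations of log2 CPM from the group mean correlated between muscles for columns of 1 number in KO (36 of 36 pairs with r over 0.1, each the best match) but not throughout in WT (17 of 36), so the column number was added as a block to the muscle comparisons in KO. Other WT libraries matched best under a different number, with r = 0.726 for Quad column 4 and a TA column. The WT fits have no block and treat these libraries as independent. Alternatives were DESeq2 1.42.0, RLE factors, no filter, Xist as a covariate, all 48 libraries in 1 fit, and leaving out libraries. All 9 genes were named in every comparison, with up to 4 genes of smallest p that passed from each other list and the 3 genes of highest r per member, of which 1 is not reported here. Members, lists and the libraries left out were chosen with earlier results of these data known. Library totals limit precision little here, since the smallest count of a member in any library was 5366.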

Additional observations from a re-analysis of the deposited data

Results flagged for a closer look

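In 2 of the 72 groups of 6 libraries (9 genes in 8 groups), 1 library lay far from the rest of its group, with a gap to its nearest neighbour above Dixon's 95% critical value; chance gives about 1 in 20 groups. Mest was at 1197 CPM in WT column 1 of Quad, where the next lowest WT library had 1348 CPM (gap over range 0.646). Plagl1 was at 1342 CPM in KO column 0 of Quad, where the next highest KO library had 1235 CPM (gap over range 0.723). Without these libraries no member changed its call for KO against WT in Quad.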

How the results depend on the processing

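Apart from fits that left out 1 library, 560 member values kept their direction and their side of the threshold, and 42 reversed. A further 12 kept their direction and gained a call, and 7 kept it and lost one. A value that reversed is counted only as reversed, also where its call changed, as for Mest and Cdkn1c in the shared fit without KO columns 0 and 1. Of 16 ratio values 14 kept their direction and side. KO columns 0 and 1 were left out with measured levels known. Without them the reversals for KO against WT were, on the log2 scale, Cdkn1c (-0.083), Dlk1 (-0.057) and Mest (-0.10) in Quad, Cdkn1c (-0.16), Meg3 (0.10) and Mest (-0.15) in TA, Cdkn1c (-0.046) and Mest (-0.12) in Gastroc, and Igf2 (-0.0036), Cdkn1c (-0.15), Rian (-0.022), Mest (-0.14) and Grb10 (-0.055) in Dia. In the shared fit Cdkn1c (-0.12) and Mest (-0.14) reversed, as did the ratios Dlk1 to Meg3 in Quad (-0.14) and Rian to Meg3 in Dia (-0.044). Members called were then 1 in TA and 5 in the shared fit. Without WT column 1 of Dia, Igf2 (-0.0069), Cdkn1c (-0.027), Meg3 (-0.00016), Grb10 (-0.024) and Plagl1 (-0.016) reversed for KO against WT in Dia, and Peg3 (0.0084) for Dia against limb in WT. With all 48 libraries in 1 fit Meg3 in Quad was at -0.0040. For Quad against Gastroc in WT, Dlk1 was at -0.0011 with RLE factors and -0.0010 with DESeq2. With KO in place of WT libraries, chosen after seeing the data, reversals were Dlk1 (0.026), Peg3 (-0.040) and Grb10 (0.034) for Quad against TA and Peg3 (0.17) and Grb10 (-0.014) for TA against Gastroc, with 1 member called for Quad against Gastroc and 2 for TA against Gastroc. Without KO columns 0 and 1 as well, they were Dlk1 (0.013), Peg3 (-0.043) and Grb10 (0.035) for Quad against TA, Dlk1 (-0.013) and Grb10 (-0.0035) for Quad against Gastroc with 1 member called, and Dlk1 (-0.027), Peg3 (0.18) and Grb10 (-0.039) for TA against Gastroc. With the KO column number as a replicate block in place of leaving columns out, also chosen after seeing the data, Dlk1 (0.023), Peg3 (-0.035) and Grb10 (0.034) for Quad against TA and Peg3 (0.16) and Grb10 (-0.014) for TA against Gastroc reversed relative to WT, with 4 members called for Quad against Gastroc and 7 for TA against Gastroc. For Dia against limb in KO the block added Peg3 (-0.12) to the calls, lost none and gave 6 members called. The cause was not tested.

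With 1 library left out, 2280 of 2376 member values kept direction and side, and 73 reversed. For KO against WT the ranges of those with a reversal were, in Quad, Igf2 -0.010 to 0.080, Dlk1 -0.011 to 0.073, Meg3 -0.048 to 0.038 and Mest -0.0015 to 0.12; in TA, Igf2 -0.020 to 0.040, Cdkn1c -0.031 to 0.13, Dlk1 -0.068 to 0.021, Meg3 -0.063 to 0.044 and Mest -0.055 to 0.052; in Gastroc, Igf2 -0.068 to 0.00098, Dlk1 -0.059 to 0.034, Mest -0.035 to 0.076 and Peg3 -0.0096 to 0.15. In Dia they were Igf2 -0.0069 to 0.12, Cdkn1c -0.047 to 0.073, Dlk1 -0.18 to 0.013, Meg3 -0.0062 to 0.11, Mest -0.022 to 0.14, Peg3 -0.0095 to 0.21, Grb10 -0.026 to 0.097 and Plagl1 -0.016 to 0.066, and in the shared fit Dlk1 -0.044 to 0.0015, with 0 to 2 members called. For Dia against limb, Peg3 ran from -0.094 to 0.0084 in WT and from -0.21 to 0.0028 in KO, and Rian from -0.16 to 0.012 in KO. For Quad against TA in WT, Meg3 ran from -0.051 to 0.0050, Grb10 from -0.043 to 0.016 and Plagl1 from -0.00072 to 0.11; for Quad against Gastroc, Dlk1 from -0.037 to 0.056 and Grb10 from -0.014 to 0.048; for TA against Gastroc, Dlk1 from -0.0040 to 0.092 and Grb10 from -0.0035 to 0.047. The ratio Dlk1 to Meg3 ran from -0.045 to 0.12 in Quad and -0.11 to 0.057 in TA, and Rian to Meg3 from -0.058 to 0.051 in Gastroc.

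Counts of all genes called for KO against WT moved more. DESeq2 called 71 genes in Quad against 0 with edgeR, 110 against 14 in TA, 94 against 23 in Gastroc and 28 against 1 in Dia. With no filter Quad had 7, with Xist as a covariate Quad had 6, TA 8 and Dia 2, and with all 48 libraries in 1 fit Quad had 16, Gastroc 36 and Dia 30. Without WT column 1 of Dia, Dia had 0 (700 genes at an unadjusted p under 0.05). Without KO columns 0 and 1 the counts were 133 in Quad, 219 in TA, 108 in Gastroc, 72 in Dia and 4698 for the shared effect (1153 with all libraries). With 1 library left out they were 0 to 2 in Quad, 4 to 26 in TA, 4 to 29 in Gastroc and 0 to 4 in Dia. For KO against WT and for WT alone, no block was fitted: WT columns of 1 number matched best in 17 of 36 pairs, and the WT library low in Xist is column 0 in Quad and column 1 in the other muscles. The remaining WT columns matched best under a different number, so these fits treat as independent libraries that deviated together. No paired analysis was possible because, between KO and WT, the deposited columns could not be tied to the replicate numbers of the labels.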
